A study of Mus musculus with 1753 samples.

Results

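Collagen VI and collagen VIII are built from small gene families, and 7 of their chains are described here among the 46517 mouse genes of the count table: Col6a1, Col6a2, Col6a3, Col6a5, Col6a6, Col8a1 and Col8a2. The genes were found by matching the Ensembl identifiers of the table to gene symbols, without reference to their values, and all 7 had reads. Single-cell transcriptomes had been made with Smart-seq2 from dissociated hindlimb muscle, and 1753 cells carried labels for cluster, strain and plate. The sort kept cells that bound antibodies to PDGFRα or PDGFRβ or that showed reporter fluorescence, and left out cells with the endothelial protein CD31. The mice were adult males of 10 to 20 weeks on a C57BL6 background.

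The strain labels served as replicates, each being taken to cover mice of its own. C57BL6 (373 cells) carried no reporter. Acta2GFP (157 cells) and PdgfrbGFP (630 cells) carried green fluorescent transgenes under regulatory sequence of Acta2 and Pdgfrb, and Cspg4dsRED (181 cells) a red one under that of Cspg4, so the sort favours cells in which that promoter is active. The label PdgfraGFP - PdgfrbGFP pool (412 cells) names a nuclear reporter at Pdgfra and the Pdgfrb reporter. The study's methods describe pooling of soleus muscle from a mouse of each kind before dissociation and say nothing of gastrocnemius, which the label also covers, and whether the label shares a mouse with PdgfrbGFP was not tested. Acta2GFP tissue alone was digested with elastase added. Following the study's text, clusters 1, 3, 5, 6 and 8 (1116 cells) are called endomysial, clusters 2 and 9 (328 cells) perimysial and cluster 4 (60 cells) paramysial, after the sheaths around single muscle fibres, around fibre bundles and the zone between them. The study anticipates that the endomysial clusters also hold fibroadipogenic progenitors and perivascular fibroblasts, and leaves this to further work. Cluster 7 (187 cells) is called mural, for the smooth muscle cells and pericytes of vessel walls, and cluster 10 (62 cells) has no class name. The labels fill the endomysial class unequally: cluster 6 gave 46 of its 51 cells in Cspg4dsRED, but 2 of 60 in Acta2GFP, 49 of 209 in C57BL6, 53 of 302 in the pool and 81 of 494 in PdgfrbGFP. The authors made the clusters from these same counts, so a difference between clusters is a description of how the cells were grouped and cannot count as separate evidence.

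The median cell had 258251 counts, the shallowest 46097 and the deepest 1055869. It was lowest in Cspg4dsRED, with a median of 121646, and differed between classes, from 156959 in mural to 595321 in paramysial cells. The summed level of 5 fibroblast markers (Pdgfra, Lum, Cd34, Dcn and Col1a1) was 110.7 to 623.7 scaled counts over the strain labels in mural cells and 6667 to 14059 in the other classes, and 7 mural markers summed to 8266 to 13826 in mural cells and to at most 687 elsewhere. Perimysial and paramysial markers were highest in the clusters of those names, at 5890 to 9526 and 1699 to 3367. Across labels the paramysial list overlapped, at 1923 in perimysial cells of Acta2GFP against 1699 in paramysial cells of PdgfrbGFP. Markers of other cell types were low, at most 255 for muscle fibres and satellite cells (paramysial cells), 153 for endothelium (cluster 10) and 47.4 for immune cells (mural cells). A scaled count is the reads of a gene per 500000 reads of the cell without spike-ins. Levels below are means of scaled counts over the cells of a class within a strain label, given with the mean and SD over strain labels (n = 5 for endomysial, perimysial and mural cells, 4 for paramysial cells and 3 for cluster 10). A strain label entered a class with 3 or more cells.

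Collagen VI forms thin beaded microfibrils beside the basement membrane of muscle fibres. Its unit is a trimer of an α1 chain (Col6a1), an α2 chain (Col6a2) and a longer chain, most often α3 (Col6a3), which α5 (Col6a5) and α6 (Col6a6) resemble. Defects in the 3 common chains cause inherited muscle diseases, and muscle fibroblasts are known as the main source of the protein. Collagen VIII is a short-chain collagen of vessel walls and of the membrane under the corneal endothelium, made from α1 (Col8a1) and α2 (Col8a2) chains.

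The genes lie in pairs or alone in the mouse genome (GRCm38, GENCODE M21). Col6a1 (ENSMUSG00000001119, chr10:76708792-76726168) and Col6a2 (ENSMUSG00000020241, chr10:76595762-76623630) are neighbours on the minus strand with 85.2 kb between them, and Col6a6 (ENSMUSG00000043719, chr9:105687809-105828160) and Col6a5 (ENSMUSG00000091345, chr9:105856078-105960643) are neighbours on the minus strand with 27.9 kb between them. Col6a3 (ENSMUSG00000048126, chr1:90765923-90843971, minus), Col8a1 (ENSMUSG00000068196, chr16:57624258-57754737, minus) and Col8a2 (ENSMUSG00000056174, chr4:126286793-126314330, plus) lie apart. The related Col6a4 had 2 reads in all cells together. Of the exonic bases of Col6a6, 0.687% overlap another annotated gene, and the other 6 genes have no such overlap.

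The 250 bases before a RefSeq start site are shown for 5 of the chains, since Col6a1 and Col6a2 moved together over the clusters while Col6a3, Col8a1 and Col8a2 each followed a course of their own. They are from GRCm38.p6, written 5′ to 3′ on the strand of the gene. Capitals mark CCGCCC, the letters of a GC box, or its reverse complement, and TGACTCA, the letters of an AP-1 site.
Col6a1, chr10:76726045-76726294, minus strand: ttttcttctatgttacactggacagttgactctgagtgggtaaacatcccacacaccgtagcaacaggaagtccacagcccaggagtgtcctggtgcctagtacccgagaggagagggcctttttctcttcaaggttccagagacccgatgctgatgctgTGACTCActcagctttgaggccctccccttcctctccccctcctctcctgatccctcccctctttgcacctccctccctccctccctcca
Col6a2, chr10:76623631-76623880, minus strand: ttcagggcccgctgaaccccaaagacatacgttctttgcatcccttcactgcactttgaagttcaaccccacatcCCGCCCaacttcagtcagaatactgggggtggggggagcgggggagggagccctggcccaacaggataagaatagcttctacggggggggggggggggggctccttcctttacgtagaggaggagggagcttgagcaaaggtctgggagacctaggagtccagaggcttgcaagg
Col6a3, chr1:90843972-90844221, minus strand: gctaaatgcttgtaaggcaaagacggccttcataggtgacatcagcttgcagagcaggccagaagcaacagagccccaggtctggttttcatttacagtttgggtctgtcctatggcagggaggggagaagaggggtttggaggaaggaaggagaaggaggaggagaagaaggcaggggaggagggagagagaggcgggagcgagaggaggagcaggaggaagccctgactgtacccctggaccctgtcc
Col8a1, chr16:57754738-57754987, minus strand: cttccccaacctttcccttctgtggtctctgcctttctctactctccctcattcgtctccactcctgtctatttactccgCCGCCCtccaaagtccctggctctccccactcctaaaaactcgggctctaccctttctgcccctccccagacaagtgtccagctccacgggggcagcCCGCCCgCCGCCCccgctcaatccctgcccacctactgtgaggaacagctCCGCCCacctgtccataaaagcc
Col8a2, chr4:126286544-126286793, plus strand: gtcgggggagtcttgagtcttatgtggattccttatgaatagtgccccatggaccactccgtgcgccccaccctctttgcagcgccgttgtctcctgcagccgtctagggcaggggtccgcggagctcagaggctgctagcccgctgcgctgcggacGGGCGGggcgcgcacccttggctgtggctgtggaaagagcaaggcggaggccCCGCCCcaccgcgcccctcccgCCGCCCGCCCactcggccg

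The windows were searched on both strands, with overlapping matches counted. CCGCCC was found 4 times each before Col8a1 and Col8a2, where the matches before Col8a2 include an overlapping pair, and once in the Col6a2 window shown. A Col6a2 window at another RefSeq start (chr10:76623405-76623654) held 3, of which 2 overlap, and Col6a6 and Col6a5 held 2 and 1. Among 32851 promoters of this length, 32.7% held this motif. The AP-1 letters TGACTCA, which 4.46% of promoters held, were found only before Col6a1, 90 bases from the RefSeq start site. That start lies inside the GENCODE gene, which ends at chr10:76726168, so part of the window and this match fall within the gene by that model. Parts of the Col6a6 window and of the other Col6a2 window also lie inside their GENCODE genes. TATAAA, which 12.4% held, was found before none of the 7 genes. The share of G and C in the windows was 56.0% to 70.0%. These matches are letters only, and binding was not measured.

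Col6a1 and Col6a2 were expressed in nearly every cell. A read was found in 97.3% of all cells for Col6a1 and in 98.1% for Col6a2, and 86.4% and 85.2% of cells reached 100 scaled counts, a limit set here after the 100 counts the study used to call a gene detected in its tests. The mean level of Col6a1 was 1024 ± 101 scaled counts in endomysial, 796 ± 114 in perimysial, 1142 ± 568 in paramysial, 1075 ± 300.5 in cluster 10 and 86.0 ± 71.97 in mural cells. By cluster it ran from 1256 in cluster 3 through clusters 4, 10, 6, 8, 5, 2 and 1 to 720 in cluster 9 and 86.0 in cluster 7, and only the last step was larger than the spread, with no overlap between strain labels. Col6a2 stood at 1195 ± 262 in endomysial, 752 ± 188 in perimysial, 1650 ± 1010 in paramysial, 1246 ± 311 in cluster 10 and 131 ± 76.0 in mural cells. Its order over the clusters was 4, 3, 10, 6, 8, 5, 2, 1, 9 and 7, again with every pair of neighbours overlapping except clusters 9 and 7.

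Col6a3 varied more among fibroblasts. Its mean level was 568 ± 166 scaled counts in endomysial, 161 ± 67.9 in perimysial, 870 ± 403 in paramysial, 204 ± 25.1 in cluster 10 and 113 ± 72.9 in mural cells. By cluster it ran from 870 in cluster 4 and 674 in cluster 3 through 630 in cluster 6, 470 in cluster 8, 345 in cluster 5, 265 in cluster 1, 204 in cluster 10 and 175 in cluster 2 to 113 in cluster 7 and 101 in cluster 9. Neighbours in that order overlapped throughout, while the ends did not: the lowest strain label of cluster 4 was at 328 and the highest of cluster 9 at 139.

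The other chains were restricted to part of the cells. Col6a6 had a read in 30.6% of cells and a mean of 38.7 ± 19.2 scaled counts in endomysial cells, against 6.05 ± 6.24 in paramysial, 1.86 in cluster 10, 0.628 in perimysial and 0.447 in mural cells. Within the endomysial clusters it was 82.4 ± 43.4 in cluster 3, 39.8 in cluster 1, 39.4 in cluster 5 and 23.7 in cluster 8, but 2.22 in cluster 6. Col6a5 had 726 reads in 29 cells, nearly all endomysial. Its level was 4.37 in cluster 6, where it came mostly from C57BL6 at 10.2 and the pool at 5.70, and 2.43 in cluster 8. It had 0 reads in clusters 4, 5, 7, 9 and 10.

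Col8a1 had a read in 59.3% of cells and Col8a2 in 38.4%, and their highest clusters differed. Col8a1 stood at 1032 ± 749 scaled counts in paramysial cells, 213 ± 40.2 in cluster 9, 170 ± 45.8 in cluster 3, 119 ± 69.0 in cluster 2 and 93.5 ± 68.6 in cluster 10. It followed at 42.5 in cluster 6, 39.4 in cluster 5, 37.7 in cluster 1, 11.5 in mural cells and 9.66 in cluster 8, and of all neighbours in this order only cluster 4 and cluster 9 did not overlap. Col8a2 stood at 183 ± 63.2 in cluster 2, 129 ± 43.7 in cluster 9, 93.5 ± 56.4 in cluster 4, 45.1 ± 8.75 in cluster 6 and 43.9 in cluster 5. It was 26.1 in cluster 10, 8.98 in cluster 8, 4.48 in cluster 3, 0.842 in cluster 1 and 0.545 in mural cells, and neighbours overlapped throughout.

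**Figure D1:**
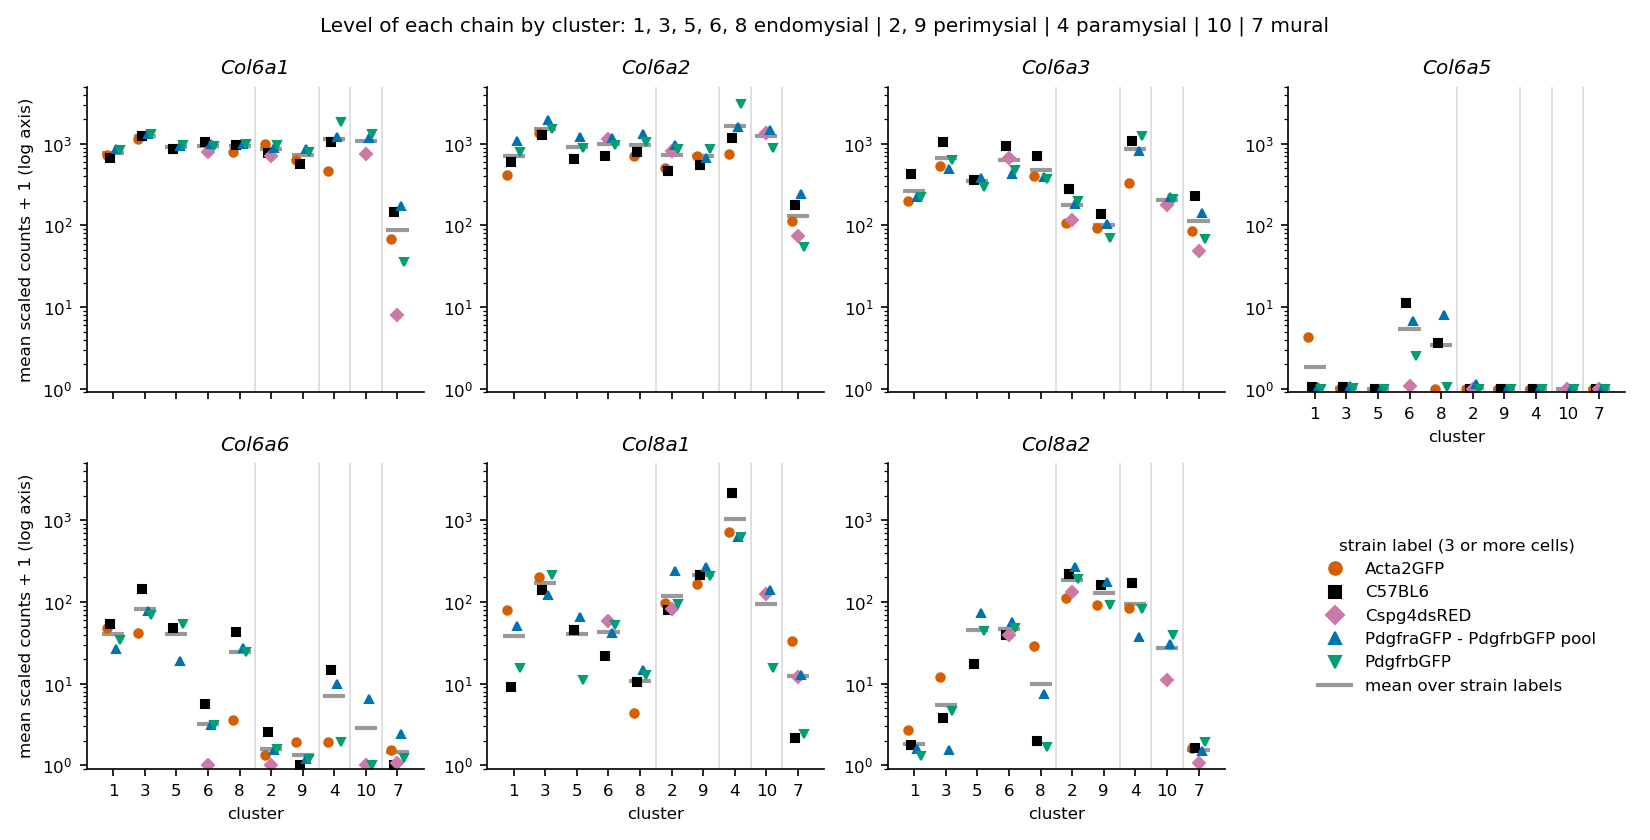
Mean scaled counts plus 1 (log axis) of the 7 chains in each cluster, with 1 point per strain label of 3 or more cells and a bar at the mean over strain labels; vertical lines part the classes. Col6a1 and Col6a2 vary over the fibroblast clusters by less in fold than the other chains. Col6a6 drops at cluster 6 and beyond the endomysial clusters, Col8a1 peaks in cluster 4 (630 to 2154) and Col8a2 in clusters 2 and 9.

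Mural cells were compared with all fibroblasts, to ask which chains separate the vessel wall cells from the fibroblasts. The 3 common collagen VI chains and both collagen VIII chains were lower in mural cells in 5 of 5 strain labels, and the depth of the difference was unequal: Col6a3 was 4.80-fold lower and Col6a1 17.2-fold lower. Of the 7 chains, 6 were called lower and 0 higher by edgeR's quasi-likelihood test at a Benjamini-Hochberg adjusted p under 0.05. Of all 16694 genes tested, 14.0% were called in either direction and 8.84% as lower. The median log2 difference over all genes was −0.63 (−0.53 with RLE in place of TMM normalization, and 0.02 without the strain block). Col6a6 and Col8a2 had at most 9 and 14 reads in any mural sum and Col6a5 had 0, so these chains depended on the fibroblast sums to pass the filter on low counts, and their place among the tested genes already depends on the difference. In these sums fewer cells with a transcript and less transcript per cell cannot be told apart. Counted by cell, 75.4% of mural cells had a read of Col6a1, and the median was 9.00 scaled counts. In cluster 9, which had the lowest median of Col6a1 among the fibroblast clusters, these values were 100% and 601.8. The mural share with a read was 41.9% in the 74 cells of Cspg4dsRED, whose median was 0. It was 98.2% in Acta2GFP, 77.8% in C57BL6 and 100% in the pool and in PdgfrbGFP, with medians of 19.0, 13.3, 64.8 and 16.9. Cluster 9 held 2 cells of Cspg4dsRED, and the part of plate and depth in the mural share was not tested.

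Col6a1 was at 67.2 scaled counts in mural cells of Acta2GFP, 147 in C57BL6, 6.98 in Cspg4dsRED, 174 in the pool and 34.9 in PdgfrbGFP. In the fibroblasts of the same labels it was at 902, 902, 784, 1124 and 1068. The mural levels lay apart from and below all fibroblast levels, with Cspg4dsRED lowest, and the log2 difference was −4.11 ± 0.60 (SE; edgeR, adjusted p = 0.00257). Col6a2 was at 112, 175, 74.3, 239 and 53.4 in mural cells and at 920, 706, 1216, 1525 and 1133 in fibroblasts. Its groups did not overlap either, with a log2 difference of −3.32 ± 0.36 (9.99-fold; edgeR, adjusted p = 0.000575).

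Col6a3 was at 83.5 scaled counts in mural cells of Acta2GFP, 228 in C57BL6, 47.9 in Cspg4dsRED, 142 in the pool and 66.6 in PdgfrbGFP, against 328, 575, 414, 438 and 421 in fibroblasts. All mural levels were below all fibroblast levels, by −2.26 ± 0.30 on the log2 scale (edgeR, adjusted p = 0.00167). Col8a1 was at 1.18 to 32.4 in mural cells and at 84.0 to 175 in fibroblasts, a 29.5-fold difference (log2 −4.88 ± 0.53; edgeR, adjusted p = 0.000607), and Acta2GFP was highest in both groups. Col8a2 had 33 reads in all mural cells and 46753 in fibroblasts (edgeR, adjusted p = 0.000736), and Col6a6 17 and 31409 (edgeR, adjusted p = 0.00245). Col6a5 had 0 reads in mural cells and 726 in fibroblasts and was not called (edgeR, adjusted p = 0.0896).

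The mural levels of the fibroblast markers ran beside these values. As a percent of the fibroblast level of the same strain label, mural Col6a1 was 0.89% to 16.3% (median 7.45%), Col6a2 4.71% to 24.8% (12.2%) and Col6a3 11.6% to 39.7% (25.5%). Dcn, the core protein of decorin, was 0.998% to 11.7% (median 6.35%), Col1a1 1.66% to 7.78% (6.34%), Lum 0.616% to 4.92% (2.44%) and Pdgfra 0.254% to 2.58% (1.38%), whereas Pdgfrb was at 91.0% or more in every label. The median of Col6a3 was thus above that of each of these fibroblast markers and that of Col6a1 near Dcn. The part of free or carried-over fibroblast RNA in the mural values was not tested.

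Of 51 partner genes (enzymes that modify and fold collagen, matrix partners of collagen VI, receptors, cleaving proteases and close relatives), 48 were tested and 34 were called, 3 higher and 31 lower in mural cells. All 10 called of 17 assembly genes and all 13 called of 15 matrix partners were lower, while receptors divided into 3 higher and 4 lower of 10. The largest differences were those of Itga2, a subunit of a collagen-binding integrin (log2 −7.01; edgeR, adjusted p = 0.0161), and of the matrilins Matn4 (−6.87, adjusted p = 0.00135) and Matn3 (−6.76, adjusted p = 0.0127), adaptor proteins that link collagen VI to other matrix. Without PdgfrbGFP, Itga2 and Matn3 lost their call (adjusted p = 0.0658 and 0.0596), and Matn3 did without Acta2GFP (0.0694). By the main fit, mural Itga2 and Matn4 were at 0.0078 and 0.0085 of the fibroblast level. Their place among the tested genes may thus depend on the fibroblast sums. Of 11 fibrillar collagens, 9 were lower and 0 higher, among them Col11a1 (−7.91) and Col2a1 (−7.88). Of 8 basement membrane collagens, 1 was higher and 3 were lower, with Col4a4 (−6.12) and Col15a1 (−5.80) changed most. The median log2 difference was −4.88 for the members, −2.44 for the partners, −4.36 for fibrillar and −0.34 for basement membrane collagens.

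Perimysial and endomysial fibroblasts were compared to ask how the chains differ between these classes of clusters. Perimysial cells had less Col6a3, Col6a2, Col6a5 and Col6a6 and more Col8a2, with the same sign in 5 of 5 strain labels for each. Col6a1 was also lower in 5 of 5 labels, by a smaller difference that did not pass the test. Of the 7 chains, 5 were called, 4 lower and 1 higher, against 5.65% of 16947 genes in either direction, 3.31% lower and 2.34% higher. The median log2 difference over all genes tested was −0.22. Col6a5 and Col6a6 had perimysial sums with 0 reads and could not have passed the filter on low counts without their endomysial sums, so their place among the tested genes already depends on the difference.

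Col6a3 was at 98.0 scaled counts in perimysial cells of Acta2GFP, 264 in C57BL6, 102 in Cspg4dsRED, 162 in the pool and 179 in PdgfrbGFP. In endomysial cells it was at 462, 793, 697, 425 and 460. C57BL6 was highest in both classes and the classes did not overlap. The difference was 3.67-fold (log2 −1.88 ± 0.30; edgeR, adjusted p = 0.0129), and it missed the threshold without Acta2GFP (log2 −1.78, adjusted p = 0.0613). Col6a2, at 475 to 903 in perimysial and 868 to 1590 in endomysial cells with an overlap, was 1.49-fold lower (log2 −0.58 ± 0.10; edgeR, adjusted p = 0.0193). That call was lost without Acta2GFP, C57BL6 or the pool (adjusted p = 0.0547, 0.0804 and 0.0816) and without the strain block (0.441). Col6a1, at 649 to 940 and 868 to 1139, did not pass the test (log2 −0.29 ± 0.10; edgeR, adjusted p = 0.171).

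Col6a6, whose product can take the place of the α3 chain, was at 0.711 scaled counts in perimysial cells of Acta2GFP, 1.44 in C57BL6, 0 in Cspg4dsRED, 0.451 in the pool and 0.540 in PdgfrbGFP, against 31.5, 62.7, 11.4, 49.0 and 39.1 in endomysial cells. No perimysial level came near an endomysial one, and the difference was 68.7-fold (log2 −6.10 ± 0.56; 177 against 30513 reads; edgeR, adjusted p = 0.00104). Col6a5 had 2 perimysial and 724 endomysial reads (edgeR, adjusted p = 0.0433). This call rests on few cells and was lost without Acta2GFP (adjusted p = 0.128), C57BL6 (0.134), the pool (0.237) or PdgfrbGFP (0.145), and with cells weighted alike (0.0887).

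Col8a2 went the other way. It was at 98.0 scaled counts in perimysial cells of Acta2GFP, 212 in C57BL6, 125 in Cspg4dsRED, 243 in the pool and 173 in PdgfrbGFP, and at 13.3, 11.01, 34.6, 11.7 and 10.8 in endomysial cells. The classes did not overlap and the difference was 12.3-fold (log2 3.62 ± 0.43; edgeR, adjusted p = 0.0033). Col8a1 was at 82.5 to 247.5 in perimysial and 49.4 to 141 in endomysial cells. These ranges overlapped, and the log2 difference of 0.90 ± 0.24, positive in 5 of 5 labels, did not pass the test (edgeR, adjusted p = 0.0811).

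**Figure D2:**
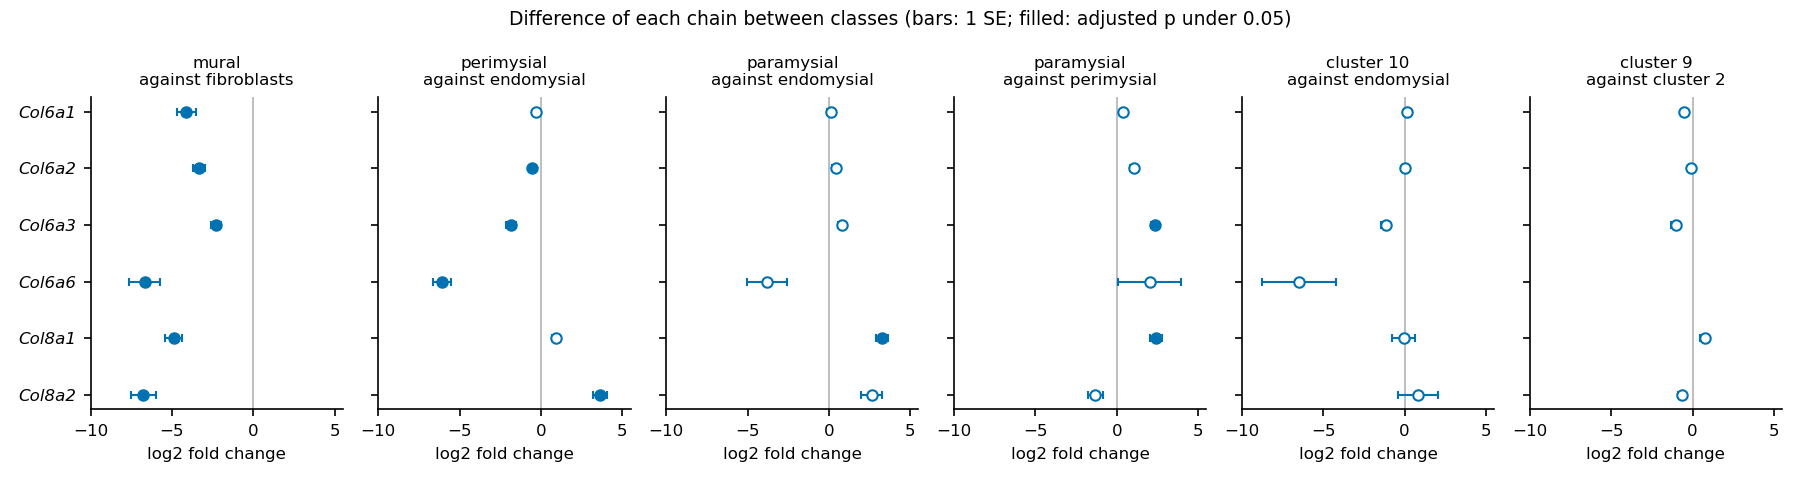
Log2 difference of 6 chains in 6 comparisons of classes, from edgeR fits with the strain label as a block; bars are 1 SE and filled points have an adjusted p under 0.05. Col6a5 is left out for its few reads. In mural cells 6 points lie below 0, in perimysial cells Col8a2 lies at 3.62 opposite to Col6a3 at −1.88, and in paramysial cells Col8a1 lies at 3.25.

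Among the partners of collagen VI, 22 of 47 tested were called between perimysial and endomysial cells, 12 higher and 10 lower. Higher were Matn3 (log2 8.51 ± 0.68; edgeR, adjusted p = 0.00111), Matn4 (7.11 ± 0.66, adjusted p = 0.00104) and P3h2 (6.26 ± 0.45, adjusted p = 0.000435), a prolyl 3-hydroxylase. Fibrillar collagens were divided, with 5 of 11 higher and 3 lower, and Col2a1 (9.12) and Col11a2 (9.07), known from cartilage, changed most. Endomysial Matn3, Matn4, Col2a1 and Col11a2 were at 0.0027, 0.0073, 0.0018 and 0.0019 of the perimysial level. The place of these genes among the tested ones may thus depend on the perimysial sums. Basement membrane collagens were lower in 4 of 8 and higher in 0, led by Col4a5 (−6.43) and Col15a1 (−3.18), whose calls were lost without C57BL6 (adjusted p = 0.0526) and without the pool (0.0508), respectively. The median log2 difference was −0.58 for the members, 0.31 for the partners, 1.44 for fibrillar and −2.30 for basement membrane collagens. The paramysial marker list (Postn, C1qtnf3 and Cthrc1) was also higher in perimysial cells, at 221 to 1923 scaled counts against 29.8 to 129 in endomysial cells, and its part in these differences was not tested.

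Paramysial cells, at the border of the perimysium, were compared with both neighbours. Col8a1 was higher than in both, and Col6a3 was higher than in perimysial cells. Strain labels contributed unevenly, with 46 cells from the pool, 6 from Acta2GFP, 4 from PdgfrbGFP and 3 from C57BL6, and 45 of the pool's cells lay on the soleus plate. In all, 48 of the 60 cells were soleus cells of labels whose muscles were kept apart, so class and muscle cannot be fully told apart here. Perimysial markers summed to 1992 to 5288 scaled counts in paramysial cells, between the 129 to 660 of endomysial and the 5890 to 9526 of perimysial cells. Muscle fibre and satellite cell markers were at 255 in paramysial against 78.5 in endomysial cells of the pool. The part of these markers in the differences was not tested.

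Col8a1 was at 711 scaled counts in paramysial cells of Acta2GFP, 2154 in C57BL6, 634 in the pool and 630 in PdgfrbGFP. In endomysial cells it was at 141, 49.4, 83.8 and 92.2, and in perimysial cells at 143, 90.7, 247.5 and 111. C57BL6, with 3 cells, was highest among paramysial and lowest among endomysial cells, and paramysial levels did not overlap with either class. The difference from endomysial cells was 9.54-fold (log2 3.25 ± 0.37; edgeR, adjusted p = 0.0138), the only call among the 7 chains, against 0.0769% of 16907 genes called in either direction and 0.0591% as higher. With the plate as the unit, it missed the threshold (log2 2.76, adjusted p = 0.0778). The classes were not matched by muscle in this fit. Endomysial cells of the pool were 108 from soleus and 194 from gastrocnemius, and those of PdgfrbGFP 90 and 112, with 292 not separated. Endomysial Col8a1 was higher in soleus than in gastrocnemius of both labels, as given below (log2 2.05, not called). The soleus endomysial levels still lay below the paramysial ones, and a difference within soleus was not tested. The difference from perimysial cells was 5.27-fold (log2 2.40 ± 0.36; edgeR, adjusted p = 0.0194), and it missed the threshold without PdgfrbGFP (log2 2.46, adjusted p = 0.0763).

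Col6a3 was at 328 scaled counts in paramysial cells of Acta2GFP, 1088 in C57BL6, 814 in the pool and 1249 in PdgfrbGFP, all above the perimysial levels of 98.0 to 264. It was 5.13-fold higher than in perimysial cells (log2 2.36 ± 0.23; edgeR, adjusted p = 0.00235). With Col8a1 it made up the 2 calls among 6 chains tested, against 0.761% of 15110 genes in either direction and 0.304% as higher, while Col6a5 was not tested. Against endomysial cells the log2 difference of Col6a3 was 0.79 ± 0.25, positive in 4 of 4 labels, and did not pass (edgeR, adjusted p = 0.319). Acta2GFP was lowest for Col6a1, Col6a2 and Col6a3 in paramysial cells and PdgfrbGFP highest.

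The other chains gave no call in either comparison. Against endomysial cells, log2 differences were 0.10 ± 0.23 for Col6a1, 0.44 ± 0.26 for Col6a2, −3.80 ± 1.23 for Col6a6 and 2.63 ± 0.66 for Col8a2 (edgeR, adjusted p = 0.919, 0.613, 0.319 and 0.319), and Col6a5 had 0 paramysial reads. Against perimysial cells they were 0.39 ± 0.21, 1.06 ± 0.23, 2.03 ± 1.93 and −1.32 ± 0.46 (edgeR, adjusted p = 0.615, 0.118, 0.811 and 0.428). The value for Col6a2 passed without Acta2GFP (log2 1.25, adjusted p = 0.0259). The median log2 difference over all genes tested was −0.93 against endomysial and −0.82 against perimysial cells, so in these fits members near 0 were above the median gene. It was −0.81 and −0.71 with RLE, and −0.18 and −0.19 without the strain block.

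Of the partners, 0 of 48 were called between paramysial and endomysial cells, where edgeR left 1705 genes of the whole table at an unadjusted p under 0.05 and called 13, and DESeq2 called 762. Col5a2, a minor fibrillar chain, was the only call in the compared families (log2 1.45 ± 0.18; edgeR, adjusted p = 0.017), and it was lost without C57BL6 (adjusted p = 0.0568) or the pool (0.052). Between paramysial and perimysial cells 10 of 46 partners were called, 5 higher and 5 lower, led by Matn4 (−10.92), Matn3 (−9.30) and P3h2 (−6.16). Of these, Matn3 lost its call without the pool (adjusted p = 0.0521) and P3h2 without PdgfrbGFP (0.136). Fibrillar collagens were higher in 4 of 11 and lower in 3, among them Col2a1 (−9.22; adjusted p = 0.261 without the pool) and Col11a2 (−8.74), and 0 of 7 basement membrane collagens were called. Paramysial Matn4, Matn3, Col2a1 and Col11a2 were at 0.00052, 0.0016, 0.0017 and 0.0023 of the perimysial level. Whether these genes were tested at all may thus depend on the perimysial sums. Median log2 differences against endomysial cells were 0.44 for the members and 0.19 for the partners, and against perimysial cells 1.54 and −0.01.

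The balance of the 3 common chains was measured as a ratio of counts per exonic kilobase within each class and strain label. In endomysial cells Col6a3 was at 0.201 of Col6a1 per exonic kilobase (log2 −2.32 ± 0.56, SD, n = 5). In perimysial cells the ratio was 3.02-fold lower, below the endomysial ratio in 5 of 5 labels (log2 difference −1.60 ± 0.75; exact two-sided sign-flip permutation test, p = 0.0625, adjusted over 6 tests p = 0.125). In mural cells it was above the endomysial ratio in 5 of 5 labels (log2 difference 1.71 ± 0.82; exact permutation p = 0.0625, adjusted p = 0.125). In paramysial cells it was 1.61-fold above in 4 of 4 labels (log2 difference 0.68 ± 0.20; exact permutation p = 0.125, adjusted p = 0.15). With 5 labels 0.0625 is the smallest p this test can give, and with 4 labels 0.125, so no adjusted value could pass 0.05.

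Col6a1 and Col6a2 kept a closer balance. The log2 ratio of Col6a1 to Col6a2 differed from the endomysial one by 0.28 ± 0.15 in perimysial cells (higher in 5 of 5 labels; exact permutation p = 0.0625, adjusted p = 0.125), −0.85 ± 1.06 in mural cells (higher in 1 of 5; p = 0.125, adjusted p = 0.15 by the same exact test) and −0.34 ± 0.25 in paramysial cells (higher in 1 of 4; exact permutation p = 0.25, adjusted p = 0.25). Which chain is the more abundant per length depended on the length used. Per exonic kilobase of all annotated isoforms Col6a1 was at 1.63 of Col6a2 in endomysial cells, and per kilobase of the longest coding transcript, chosen after seeing the data, at 0.971. The annotated exons of Col6a2 span 8326 bases and its longest coding transcript 4653, while those of Col6a1 span 4380 and 4100. The ratio also moved with the plate, from a log2 of 0.26 in the endomysial cells of the Cspg4dsRED plate to 1.12 in the larger C57BL6 plate, and strain and plate cannot be told apart there.

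**Figure D3:**
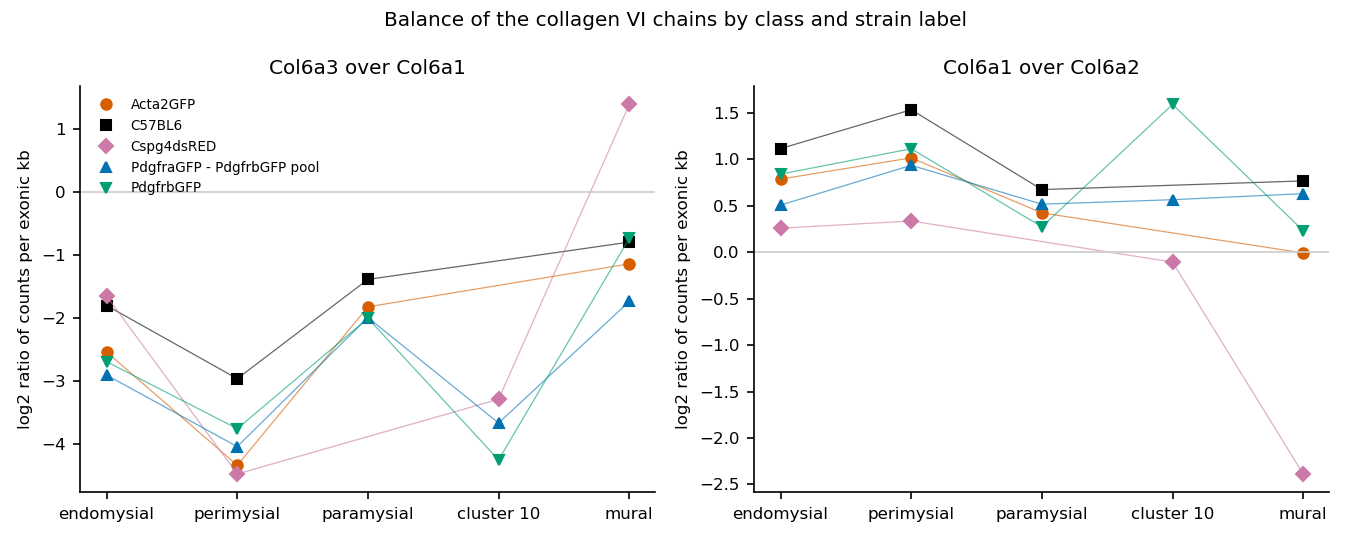
Log2 ratio of counts per exonic kilobase of Col6a3 to Col6a1 (left) and of Col6a1 to Col6a2 (right) by class, with 1 line per strain label and thin lines only joining points of a label. Every label falls from endomysial to perimysial cells on the left (mean −2.32 to −3.91), and Cspg4dsRED stands apart in mural cells in both panels.

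Cells were then scored for the common chains at 100 scaled counts. All 3 chains reached that level in 1118 of 1753 cells (63.8%), with 41.4% in Acta2GFP, 68.6% in C57BL6, 25.4% in Cspg4dsRED, 76.9% in the pool and 68.9% in PdgfrbGFP. The labels also differ in depth and in their cells: mural cells were 56 of 157 in Acta2GFP, 9 of 373 in C57BL6, 74 of 181 in Cspg4dsRED, 11 of 412 in the pool and 37 of 630 in PdgfrbGFP. The part of either in these shares was not tested. It was 74.4% at a limit of 20 scaled counts, and 82.1% of cells held a read of each chain after thinning to 40000 reads. Cluster 4 had 59 of 60 cells with all 3 chains and cluster 3 had 397 of 440 (90.2%), against 111 of 269 in cluster 2 (41.3%), 16 of 59 in cluster 9 (27.1%) and 27 of 62 in cluster 10. Among mural cells 7 of 187 had all 3 (3.74%) and 129 had none. These are shares of cells that share a mouse and a plate and were not tested.

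The collagen VIII chains were scored at the same limit, where 314 cells had Col8a1 alone, 130 Col8a2 alone and 87 both. The chain found alone differed between clusters, and cells with both were frequent in clusters 2 and 9. In cluster 3, 164 cells had Col8a1 alone, 2 had Col8a2 alone and 2 both, and in cluster 4 these numbers were 39, 1 and 7. In cluster 2, 89 cells had Col8a2 alone, 23 Col8a1 alone and 52 both, and in cluster 9 they were 4, 16 and 17. Cluster 6 held 27 cells with Col8a2 alone, 22 with Col8a1 alone and 6 with both. These numbers depend on the limit: every cell of cluster 4 had a read of Col8a1 and 71.7% had one of Col8a2. Over 22 sets of cells of 1 cluster and plate (31 to 140 cells), the Spearman correlation of scaled counts ran from 0.26 to 0.68 for Col6a1 and Col6a2 (median 0.42), from −0.01 to 0.50 for Col6a1 and Col6a3 (0.29) and from −0.27 to 0.29 for Col8a1 and Col8a2 (0.04). The cells of a set share plate and sort, and the values are given without a test.

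**Figure D4:**
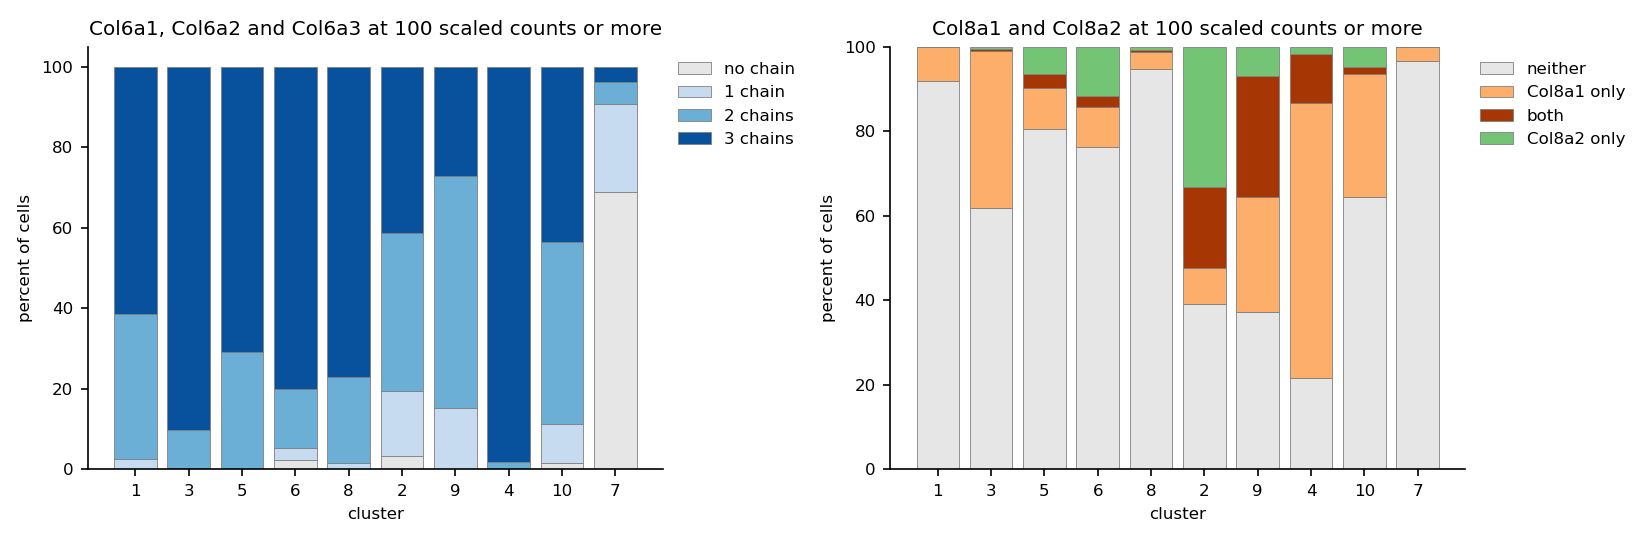
Percent of the cells of each cluster with 0 to 3 of the chains Col6a1, Col6a2 and Col6a3 (left) and with Col8a1, Col8a2 or both (right) at 100 scaled counts or more. Cluster 4 is almost filled by cells with 3 chains (59 of 60), 129 of 187 mural cells have none, and Col8a2 alone is most frequent in cluster 2.

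Within the endomysial class, the clusters were compared with one another in 4 strain labels. Of the 7 chains, 6 differed among clusters 1, 3, 5, 6 and 8 (edgeR F test), against 4.95% of 17708 genes, and among these 6 the spread between the highest and the lowest cluster was widest for Col8a2. It was 6.97 on the log2 scale for Col8a2 (edgeR, adjusted p = 0.00286), 5.41 for Col6a6 (0.00152), 4.06 for Col8a1 (0.0171), 1.497 for Col6a3 (0.00652), 1.23 for Col6a2 (0.00105) and 0.73 for Col6a1 (0.001). Col6a5, with a spread of 9.95, did not pass (edgeR, adjusted p = 0.203), but passed without Acta2GFP (0.0197). Without PdgfrbGFP 1 of the 7 chains remained called and Col6a1, Col6a3, Col6a6, Col8a1 and Col8a2 lost their calls (adjusted p from 0.0539 to 0.114). Col6a6 and Col8a1 also lost theirs without C57BL6 (0.0601 and 0.103) or the pool (0.0685 and 0.144).

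The chains marked different endomysial clusters. Col6a6 in cluster 6 was at 0 to 4.64 scaled counts, below the 25.8 to 52.3 of cluster 1, where Col8a2 in turn was at 0.316 to 1.69 against 38.0 to 56.4 in cluster 6. Col8a1 in cluster 3 was at 122 to 215, above the 3.35 to 13.9 of cluster 8. Col6a1 and Col6a2 were both highest in cluster 3, at 1151 to 1332 and 1269 to 1952, and lowest in cluster 1, at 665 to 859 and 410 to 1071. Among the partners 19 of 47 were called, with the widest spread in Cspg4 (7.87), the proteoglycan NG2 that binds collagen VI, Colgalt2 (6.46), a collagen galactosyltransferase, and Matn2 (4.77). Fibrillar collagens were called in 2 of 9, Col1a1 (1.01) and Col1a2 (0.75), and basement membrane collagens in 4 of 8, led by Col4a3 (8.73) and Col15a1 (5.25). Leaving out 1 strain label ended the call of each of these 7 genes at least once. The median spread over all genes was 2.14, and that of the members 4.06. A spread is never negative and is wide for genes nearly absent from a cluster, such as Col8a2 in cluster 1 and Col6a6 in cluster 6. The place of these chains among the tested genes may depend on the clusters where they are high. Col6a1, Col6a2 and Col6a3, at 0.73, 1.23 and 1.497, lay below the median of all genes.

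Cluster 10 and the pair of perimysial clusters gave no call among the members. Between cluster 10 and endomysial cells, in 3 strain labels, 0 of 6 chains were called by edgeR, against 0.506% of 13837 genes. An unadjusted edgeR p under 0.05 was found for 2 chains, against 1380 of all genes. DESeq2 called 1 chain, against 1092 of all genes. Col6a3, at 176 to 225 scaled counts in cluster 10, had a log2 difference of −1.16 ± 0.28 (edgeR, adjusted p = 0.226), and Col6a6, with 134 reads in cluster 10, all of them in the pool, one of −6.50 ± 2.28 (edgeR, adjusted p = 0.480). Of 45 partners 2 were called, Matn2 (2.96, adjusted p = 0.0176) and Mfap5 (−2.001, adjusted p = 0.0432), and Col18a1 was higher (2.51, adjusted p = 0.0382), by edgeR. These 3 calls were all lost without PdgfrbGFP (adjusted p = 0.203, 0.298 and 0.203), and that of Col18a1 without the pool (0.218).

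Between cluster 9 and cluster 2, in 4 labels, 0 of 5 chains were called by edgeR, against 0.806% of 13778 genes. An unadjusted edgeR p under 0.05 was found for 4 chains, against 1305 of all genes. DESeq2 called 1 chain, against 956 of all genes. Log2 differences were −1.03 ± 0.28 for Col6a3, −0.54 ± 0.19 for Col6a1, 0.74 ± 0.26 for Col8a1, −0.65 ± 0.23 for Col8a2 and −0.12 ± 0.18 for Col6a2 (edgeR, adjusted p = 0.216, 0.385, 0.383, 0.398 and 0.938). Col6a5 and Col6a6 did not pass the filter. Of 46 partners, 3 were higher and 3 lower, led by Itga2 (−8.65), Mfap5 (1.88), a microfibril protein, and Fn1 (1.61), fibronectin, and Col1a2 (−1.02) and Col1a1 (−0.89) were the fibrillar chains called. Itga2 lost its call without any 1 of the 4 labels (adjusted p from 0.0892 to 0.107), and Col1a2 and Col1a1 lost theirs without Acta2GFP, the pool or PdgfrbGFP (0.0711 to 0.158).

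Soleus and gastrocnemius had been kept apart in the pool and in PdgfrbGFP, which allowed the muscles to be compared within a strain label. Col8a1 had the largest difference in endomysial cells and was higher in soleus in both labels. It was at 161 scaled counts in soleus and 40.7 in gastrocnemius cells of the pool, and at 282 and 42.9 in those of PdgfrbGFP. The muscles did not overlap and the log2 difference was 2.05 ± 0.22 (edgeR, unadjusted p = 0.000575, adjusted p = 0.967; from 0.264 to 1.0 under edgeR alternatives, and 1.59e-10 by DESeq2). Of the 7 chains, edgeR called 0, 2 had an unadjusted p under 0.05 and DESeq2 called 1. Of all 16337 genes edgeR called 0.0%, with 807 at an unadjusted p under 0.05, and DESeq2 called 115. Only 2 labels entered, and in the pool each muscle has a plate of its own, so muscle and plate cannot be told apart there.

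The Col8a1 difference was present within clusters. In cluster 3 it was at 283 scaled counts in soleus and 56.96 in gastrocnemius cells of the pool, while PdgfrbGFP had 455 and 163 (log2 1.60). In cluster 6, soleus and gastrocnemius cells had 64.8 and 16.7 in the pool, and PdgfrbGFP had 77.5 and 48.0 (log2 1.18), and in cluster 8 they were 30.9 and 0.885, and 44.9 and 6.02 (log2 4.15). None of these passed the test over all genes, and clusters 6 and 8 were added after seeing the data. The share of cluster 3 among endomysial cells moved in opposite directions, from 59.8% in gastrocnemius to 43.5% in soleus of the pool and from 17.0% to 56.7% in PdgfrbGFP. The summed paramysial markers were also higher in soleus endomysial cells, at 149 against 36.0 in the pool and at 106 against 73.98 in PdgfrbGFP. Perimysial markers were at 250 against 61.3 and at 996 against 272. Their part in the Col8a1 difference was not tested.

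The other chains differed less between the muscles. In endomysial cells log2 differences were −0.38 for Col6a1, −0.45 for Col6a2, −0.29 for Col6a3, −1.05 for Col6a6 and 0.08 for Col8a2 (edgeR, adjusted p = 0.967 for the first 4 and 0.997 for Col8a2). Col6a6 was at 20.1 scaled counts in soleus and 65.0 in gastrocnemius cells of the pool but at 29.7 and 26.9 in PdgfrbGFP, and the fitted differences of Col6a5 and Col8a2 had opposite signs in the labels. For Col6a5 the log2 difference was −1.44 ± 1.74 (edgeR, adjusted p = 0.973). In perimysial cells 0 of 5 chains were called by edgeR, 3 had an unadjusted p under 0.05 and DESeq2 called 2, against 0.0% of 11698 genes (732 unadjusted; 370 by DESeq2).

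Among perimysial cells, Col8a2, Col6a1, Col6a2 and Col6a3 had lower levels in soleus in both labels, without passing the test. Col8a2 was at 164 scaled counts in soleus and 307 in gastrocnemius cells of the pool and at 141 and 191 in PdgfrbGFP (log2 −1.22 ± 0.29; edgeR, adjusted p = 0.6997). Col6a2 was at 655 and 1102, and at 916 and 1518 (log2 −0.92 ± 0.22; edgeR, adjusted p = 0.731), and Col6a3 at 120 and 196, and at 123 and 240 (log2 −0.95 ± 0.36; edgeR, adjusted p = 0.795). Col6a1 was at 817 and 927, and at 917 and 1271 (log2 −0.52 ± 0.23; edgeR, adjusted p = 0.877). Summed markers also differed between the muscles in these cells. In soleus against gastrocnemius, fibroblast markers were at 7596 against 10501 in the pool and 7533 against 18044 in PdgfrbGFP, and paramysial markers at 724 against 114 and 695 against 89.0. Mural markers were at 269 against 148 and 498 against 199. Their part in these differences was not tested. Col8a1 had a log2 difference of −0.29 ± 0.30. The soleus difference of Col8a1 was thus smaller by 2.44 ± 0.77 on the log2 scale in perimysial than in endomysial cells, tested as an interaction chosen after seeing the data (unadjusted p = 0.0157; edgeR, adjusted p = 0.705). Of 15386 genes in that test 0.0% were called. Of the partners, 0 of 46 in endomysial and 0 of 45 in perimysial cells were called between the muscles by edgeR.

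**Figure D5:**
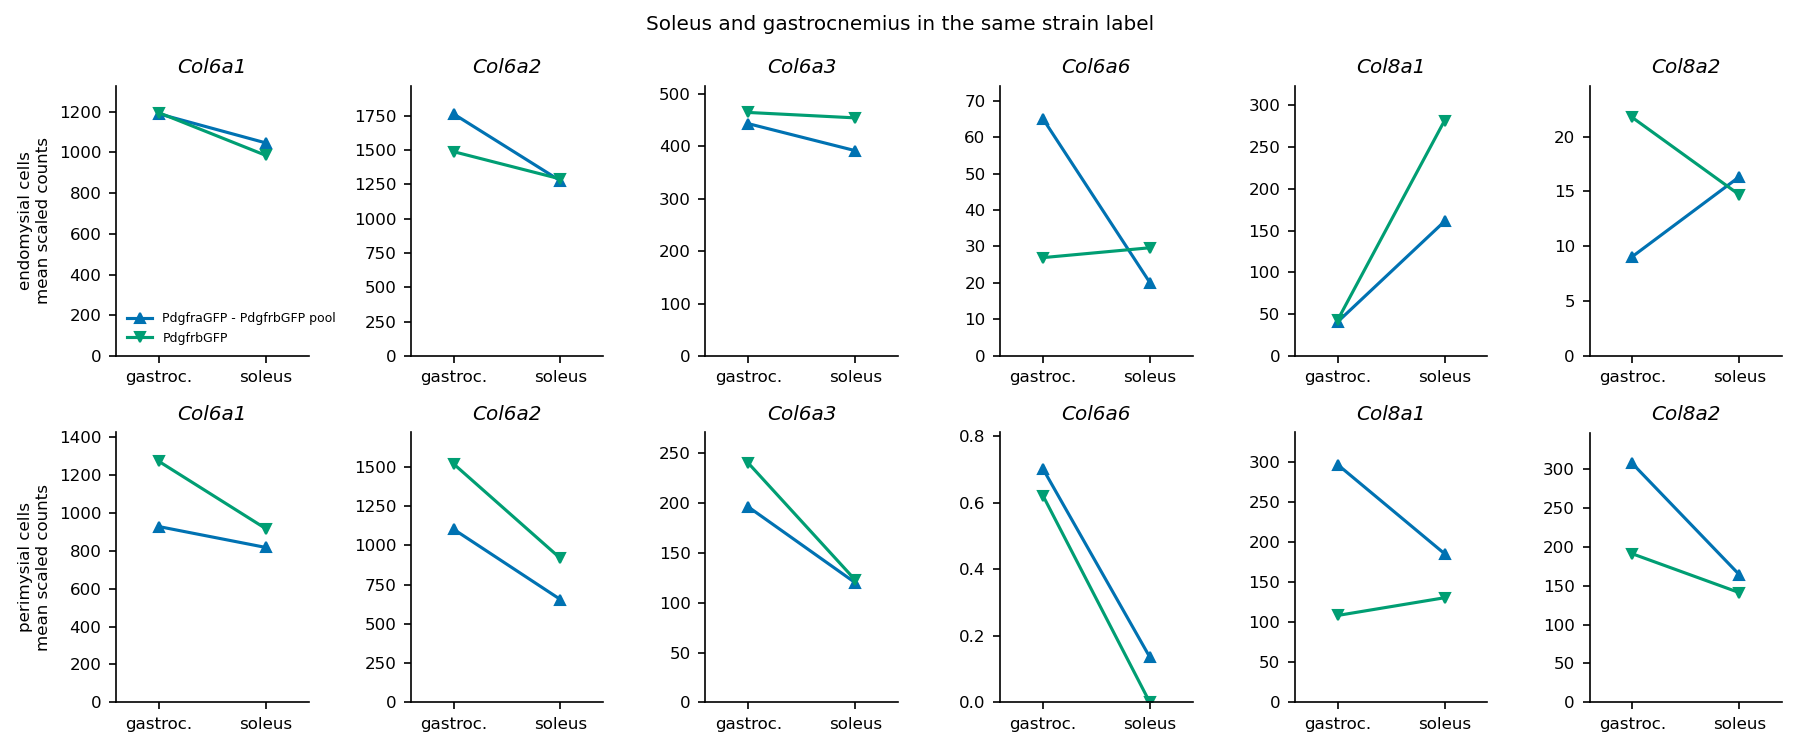
Mean scaled counts of 6 chains in gastrocnemius and soleus cells of the same strain label, for endomysial (top) and perimysial (bottom) cells, with axes from 0 and a scale for each panel. Col8a1 lies higher in soleus than in gastrocnemius endomysial cells of both labels (161 against 40.7 and 282 against 42.9), while none of the differences passed edgeR's test.

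The genes most like each chain over the clusters were ranked by Pearson's r of log2 CPM, over 32 sums per cluster and strain label centred within 5 labels, among 20801 genes. Sums of a strain label share plates and the clusters share their definition, and no test was made. Col6a1 was most like Dcn (0.97), Pcdhga7 (0.97) and Pcdhga5 (0.97), the latter being members of a gene cluster with shared exons whose reads may be divided uncertainly. Col6a2 was most like Col6a1 (0.96), Pdpn (0.96) and Ang (0.95). Col6a3 was most like Hmcn2 (0.90), Bmper (0.89) and Penk (0.88), and Col6a6 like Cyb5a (0.88), Mme (0.85) and Plau (0.85). Col8a1 was most like Thbs4 (0.82), 1810055G02Rik (0.81) and Ssc5d (0.80), and Col8a2 like Fxyd6 (0.90), Tenm3 (0.88) and Ptn (0.87). Col6a3 had an r of 0.64 with Col6a1. Col6a5, with its few reads, was most like Arhgap36 (0.80), Olfm2 (0.76) and Gm15883 (0.75).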

How the data were processed

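The study's authors sorted single cells, made Smart-seq2 libraries and sequenced single reads, which per the paper's methods were aligned with TopHat2 to the mouse genome and counted per gene with featureCounts. The submitters' processing notes name bcl2fastq, Bowtie, Bowtie2, Subread, GRCm38 and mm10. The deposited table holds raw read counts for 46517 genes and 92 spike-ins in 1754 columns, and 1 column with no label was not used. The authors had removed cells of low depth, cells with few or very many genes, and cells with endothelial or immune signatures. The methods also name a samtools step that removed doublets after mapping, without saying what was matched. The libraries carry no molecular identifiers, so reads are not counts of molecules, and strand was not recorded by the protocol.

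Of the identifiers, 46005 matched a GENCODE M21 symbol. For levels, each cell was scaled to 500000 reads without spike-ins. For tests, the deposited counts of each class were added up within each strain label (3 or more cells), filtered with filterByExpr, normalized by TMM and fitted with edgeR 4.0.16 (quasi-likelihood, R 4.3.3) with the strain label as a block, p-values being adjusted over all genes tested. The edgeR log2 differences given with ± carry an approximate standard error. It is the size of the log2 difference divided by the square root of the F statistic, so it comes from the test itself. The study had tested single cells with another tool, whereas here cells were not taken as replicates. The labels do not state how many mice a strain label covers. With the strain label as a block, the level of each label is removed. The edgeR p-values then rest on how the difference between groups varies from label to label, with the variance estimate shared in part over genes. Strain labels also differ in plate. The test script was tested on simulated data. Alternatives were DESeq2 1.42.0, RLE normalization, no filter, no strain block, cells weighted alike, plates as units, 10 or more cells, and each strain label left out. Single clusters 6 and 8, coding transcript length and the interaction of muscle and class were added after seeing the data. Ratios of chains were compared by exact sign-flip tests in scipy 1.17.1.

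The members and the lists of partners, fibrillar and basement membrane collagens and markers were chosen with earlier results of these data known. Beside the members, the text names per comparison the 3 called partners and 2 called collagens of each compared family with the largest differences, and the 3 genes most like each member. Choosing by size favours genes nearly absent from a group, which may pass the low-count filter only through the group where they are high. Promoter windows are from RefSeq (GRCm38.p6), and all 7 members had one.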

Additional observations from a re-analysis of the deposited data

Results flagged for a closer look

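Of 65 sets of 4 or 5 strain labels (a gene within a class or cluster), 6 had a label far from the others, or 9.23%. A chance rate of about 1 in 20 would hold for sets independent of each other. These sets share plates, and a class holds the cells of its clusters, so no excess can be read from the share. Col8a2 in endomysial cells was at 34.6 scaled counts in Cspg4dsRED, against 10.8 to 13.3 in the other labels. Of its 51 endomysial cells 46 lay in cluster 6, where the mean over labels was 45.1, while the other labels had most of their endomysial cells in other clusters. Col6a6, at 2.22 in cluster 6, was lowest in the same label among endomysial cells, at 11.4. Col8a1 in paramysial cells was at 2154 in C57BL6, which had 3 cells, against 630 to 711. Col8a1 in cluster 2 was at 242 in the pool, against 80.1 to 97.0. Col6a3 in C57BL6 was at 424 in cluster 1, against 196 to 222, and at 709 in cluster 8, against 373 to 407. Col6a5 in cluster 1 was at 3.31 in Acta2GFP, against 0 to 0.0364.

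The fitted soleus difference of Col8a1 was smaller in perimysial than in endomysial cells, in an interaction that was chosen after seeing the data and did not pass the test. Perimysial minus endomysial, it was −2.44 ± 0.77 on the log2 scale, with an unadjusted edgeR p of 0.0157 and, adjusted over all genes, p = 0.705, from 2 strain labels.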

How the results depend on the processing

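Among the differences of single chains, 532 values under an alternative kept direction and side of the threshold, 23 lost and 18 gained a call, and 20 changed sign. All sign changes were in differences that were not called. Col6a1 between paramysial and endomysial cells was −0.12 (log2) with cells weighted alike and −0.23 to 0.29 with a strain label left out. Between cluster 10 and endomysial cells, Col8a1 was 0.059 with DESeq2, 0.061 with RLE, 0.38 without the strain block, 0.31 by plate, 0.86 with 10 or more cells and −0.93 to 0.86 with a label left out. There, Col6a2 was −0.10 without the filter, −0.023 with cells weighted alike and −0.20 to 0.16 with a label left out, and Col8a2 was −0.27 with 10 or more cells and −0.27 to 1.94 with a label left out. Col6a2 between clusters 9 and 2 was 0.045 with 10 or more cells and −0.27 to 0.045 with a label left out. Between the muscles in endomysial cells, Col8a2 was −0.015 without the strain block, −0.99 in cluster 3 alone and −0.36 to 0.52 in single labels, and Col6a5 was 0.34 in cluster 8 alone and −3.44 to 0.54 in single labels. The cause was not tested.

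The number of chains called changed as follows. Without the strain block it was 3 for perimysial against endomysial cells. With DESeq2 it was 3 for paramysial against endomysial cells, 1 for cluster 10, 1 for clusters 9 and 2, and 1 and 2 for the muscles in endomysial and perimysial cells. By plate it was 0 for paramysial against endomysial cells. Without the filter it was 1 for cluster 10 and 2 for clusters 9 and 2. With a label left out it was 2 to 5 for perimysial cells, 1 to 3 for paramysial against perimysial cells and 1 to 7 among endomysial clusters. The log2 ratio of Col6a1 to Col6a2 in endomysial cells moved from 0.70 to −0.23 with no division by length and to −0.04 per coding transcript, and that of Col6a3 to Col6a1 from −2.32 to −0.87 with no division.

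Over all genes, DESeq2 called 4795 for mural cells (2330 by edgeR), 2392 for perimysial (958), 762 and 1226 for paramysial against endomysial and perimysial (13 and 115), 1092 for cluster 10 (70), 956 for clusters 9 and 2 (111), 2602 among endomysial clusters (876), and 115 and 370 for the muscles (0 and 0). Labels left out gave 1163 to 2294, 390 to 1425, 11 to 46, 64 to 118, 0 to 216, 43 to 54 and 242 to 737 for the first 7 of these. Without the filter, 225 genes were called for paramysial against perimysial cells, 274 for cluster 10, 345 for clusters 9 and 2 and 1 for the muscles in perimysial cells. Without the strain block it was 8 for paramysial against endomysial cells and 43 for cluster 10. By plate, 1688 were called for perimysial cells, 25 for paramysial against endomysial cells, 121 for cluster 10 and 1816 among endomysial clusters, and with 10 or more cells 0 for cluster 10 and 50 for clusters 9 and 2. Paramysial comparisons could not be run with 10 or more cells, and leaving out a label in the muscle comparison left a value with no test.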
